A study of Homo sapiens with 6 samples.

Results

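The CC chemokines CCL2, CCL5, CCL7, CCL20 and CCL22, with the chemokines CXCL10 and CXCL16, were followed across 6 RNA-seq libraries of the immortalised human keratinocyte line HaCaT. These 7 genes were taken by symbol from the 27945 genes of the deposited table. Cells were wild type or MAPK14-null, MAPK14 being the gene of the kinase p38α, and received PBS (unstimulated) or IL-1α in PBS for 4 h. Each genotype had 1 unstimulated and 2 IL-1α libraries, so an unstimulated value is a single measurement. The labels state neither the edit made in MAPK14, nor whether the null cells are 1 clone, nor whether replicates were separate cultures. The p-values below therefore measure the spread between these libraries, which may be technical.

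Chemokines are small secreted proteins that direct white blood cells along a gradient through G-protein-coupled receptors. The CC and CXC families are named for the spacing of the first cysteines of the mature protein. Keratinocytes exposed to IL-1 make chemokines largely through NF-κB and AP-1, and the p38 pathway is known for prolonging the life of short-lived inflammatory mRNAs. CCL2 and CCL7 act on CCR2 and draw monocytes, and CCL5 draws T cells and monocytes. CCL20 is the ligand of CCR6 on Th17 cells and Langerhans cell precursors, and CCL22 is a ligand of CCR4 on skin-homing and regulatory T cells. CXCL10 is an interferon-induced ligand of CXCR3, and CXCL16 is made as a membrane protein that binds CXCR6 and is released by ADAM10.

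RefSeq promoter sequences (GRCh38.p14) were at hand for 4 of the 7 genes: CCL7, CCL20, CCL22 and CXCL10. Those of CXCL10 and CCL20 are shown because these genes were nearly silent at rest and carry matches to a κB site, and that of CCL7 because it has none. Each line gives the 250 bases before the annotated start, 5′ to 3′, with motif matches in capitals.
CXCL10 promoter (chr4:76023498-76023747, minus strand): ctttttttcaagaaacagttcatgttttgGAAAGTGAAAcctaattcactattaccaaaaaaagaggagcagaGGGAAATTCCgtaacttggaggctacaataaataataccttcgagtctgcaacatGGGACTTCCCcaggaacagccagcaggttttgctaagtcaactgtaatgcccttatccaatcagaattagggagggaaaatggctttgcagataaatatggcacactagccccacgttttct
CCL20 promoter (chr2:227813592-227813841, plus strand): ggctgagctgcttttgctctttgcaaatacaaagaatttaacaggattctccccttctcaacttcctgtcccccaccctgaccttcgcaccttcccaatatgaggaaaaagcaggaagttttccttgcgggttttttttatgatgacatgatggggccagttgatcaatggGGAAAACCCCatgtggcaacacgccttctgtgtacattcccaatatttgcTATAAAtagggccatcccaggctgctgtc
CCL7 promoter (chr17:34269971-34270220, plus strand): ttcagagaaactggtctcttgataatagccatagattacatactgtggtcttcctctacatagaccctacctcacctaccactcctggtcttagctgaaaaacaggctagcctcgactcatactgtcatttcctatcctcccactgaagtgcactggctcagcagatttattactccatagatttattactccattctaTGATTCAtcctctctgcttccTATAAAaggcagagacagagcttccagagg
Matches were searched on both strands, in the window from 250 bases before to 50 bases after the start. The motifs were the κB consensus, the AP-1 site TGANTCA, the TATA box TATAAA and the interferon-stimulated response element (ISRE), taken as 2 copies of GAAA separated by 2 bases of any kind.
In CXCL10 the capitals mark, in order, an ISRE match at -221 to -212 and κB matches at -177 to -168 and -122 to -113. In CCL20 they mark a κB match at -79 to -70, which reads on the minus strand, and a TATA box at -29 to -24. In CCL7 they mark an AP-1 match at -51 to -45 and a TATA box at -30 to -25. CCL22 held overlapping κB matches between -186 and -176. A κB match was thus present in 3 of the 4 members with a sequence and in 10.8% of 27305 promoters of the same length. The other motifs occurred in 3.65% (ISRE), 7.76% (AP-1) and 12.0% (TATA box) of those promoters. A match describes letters and does not show that a factor binds.

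Sequencing depth, recovered from the values, was between 16294442 and 34967430 reads. Exon reads summed over all gene entries came to 80.1% to 83.2% of depth, where reads in overlapping entries can count more than once. Levels are in RPKM (reads per kilobase of exon per 1000000 reads) and can be compared between genes, since length is divided out. MAPK14 was at 14.4 RPKM in unstimulated wild-type cells, 13.3 and 14.8 with IL-1α, 11.3 in unstimulated knockout cells and 11.0 and 7.41 with IL-1α. Its transcript thus persisted, and a small edit would not show in this measure. All 12 keratinocyte markers reached 1 RPKM. Their levels summed to 6240 to 7230 RPKM in the wild-type libraries and to 3960 to 4490 RPKM in the knockout ones, a difference that moves with genotype and whose part in the results below was not tested. The markers did not move together. Under IL-1α 8 of the 12 were lower in the knockout, as were 5036 of the 12925 genes tested below. KRT17 was lower by the most (log2 difference -2.12, SE 0.47, limma adjusted p = 0.18), at 747 and 267 RPKM in the knockout pair. At rest it was already at 778 against 2245 RPKM in wild type. The other 4 were higher, among them COL17A1 (0.44, limma adjusted p = 0.303) and TP63 (0.41, limma adjusted p = 0.458). None of the 12 passed. In bulk samples fewer cells of a type and less RNA per cell cannot be told apart.

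Across genes and libraries, levels ran from 0.049 to 206 RPKM. CXCL16 was the most abundant at rest, at 45.7 RPKM without and 30.9 RPKM with the knockout. CCL2 followed at 9.75 and 12.6 RPKM, and CCL5 at 0.928 and 1.17 RPKM. The other 4 genes lay between 0.049 and 0.265 RPKM in the unstimulated libraries, on 1 to 27 reads. With IL-1α the order in both wild-type libraries was CCL2, CXCL16, CCL5, CCL20 and CCL22, each above the next, with CXCL10 and CCL7 last and overlapping. In the knockout IL-1α libraries CCL5 and CCL20 also overlapped, CXCL10 stood above CCL22, and CCL2 was first in replicate 1 and second to CXCL16 in replicate 2.

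**Figure D1:**
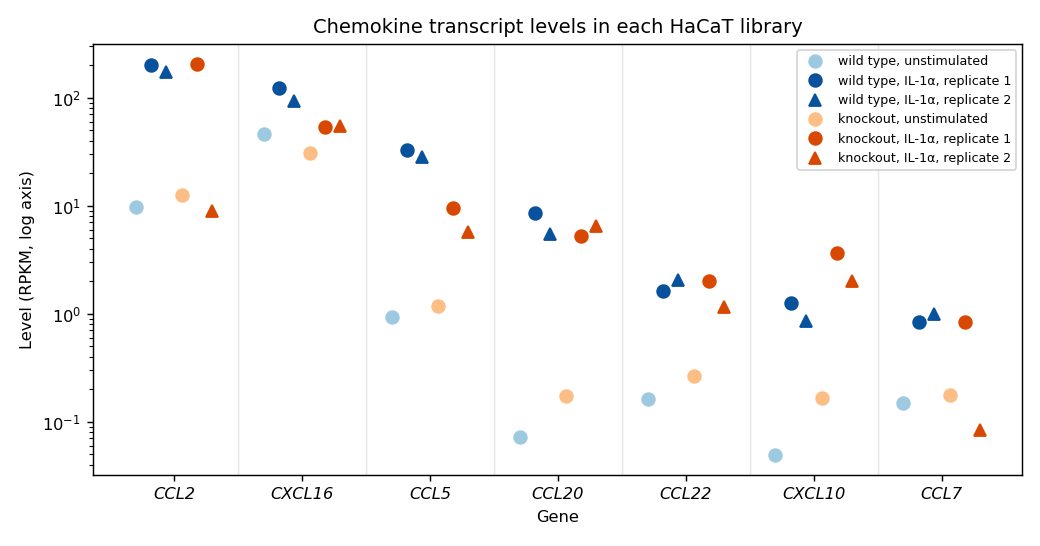
Level of each chemokine (RPKM, log axis) in each of the 6 libraries, with circles for replicate 1 and for unstimulated libraries and triangles for replicate 2. CCL2 and CCL7 in knockout IL-1α replicate 2 (8.87 and 0.083 RPKM) lie below their unstimulated knockout values, while the other 5 genes lie above theirs in all 4 stimulated libraries.

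In wild-type cells IL-1α raised CCL5 and CCL20, the T-cell and CCR6 ligands, and all other members had higher levels in both stimulated libraries than at rest. Limma on log2(RPKM + 0.5), over the 12925 genes that reached 1 RPKM in some library and with Benjamini-Hochberg adjustment at 0.05, tested 6 of the 7 genes. CCL7 peaked at 0.999 RPKM and stayed out. Of the 6 tested, 2 rose and none fell, where 0.201% of all tested genes rose. The fitted change was positive for all 6, as for 4779 of the 12925 genes. All 6 had an unadjusted p below 0.05, as had 2333 of the 12925 genes. Their median log2 change was 2.75, against -0.14 over all tested genes, a shift that median-of-ratios rescaling sets to 0. Without a test, 5 of 6 were at least 2-fold above rest in both libraries with at least 1 RPKM, as were 1.93% of all tested genes. The exception was CXCL10, which was at 0.847 RPKM in wild-type replicate 2.

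CCL5 (chr17:34198496-34207377, hg19, minus strand) was at 0.928 RPKM at rest and at 33.0 and 28.4 RPKM with IL-1α in wild-type cells. The log2 change was 4.45 (SE 0.33, limma adjusted p = 0.0134). From rebuilt reads the ratio was 32.9 (exact 95% interval 21.0 to 54.8, which like all such intervals here covers counting error only). CCL20 (chr2:228678558-228682280, hg19, plus strand) went from 0.072 RPKM, a single read, to 8.62 and 5.51 RPKM. Its log2 change was 3.69 (SE 0.33, limma adjusted p = 0.0281), and its read ratio of 97.0 had an interval of 17.2 to 3850 because of that single read. Without wild-type IL-1α replicate 1 the log2 changes were 4.34 for CCL5 and 3.39 for CCL20, and without replicate 2 they were 4.55 and 3.99. Neither fit called any of the 12925 genes, so a lost call there says nothing of these genes in particular. CCL20 also missed the threshold without knockout replicate 1 (limma adjusted p = 0.0529) or 2 (limma adjusted p = 0.0534). The voom fit on rebuilt reads called 0 of 6, with CCL5 at a limma adjusted p of 0.0536.

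CCL2 (chr17:32582296-32584220, hg19, plus strand) reached the highest level of the set, with 9.75 RPKM at rest and 201 and 172 RPKM with IL-1α in wild-type cells. The wild-type libraries did not overlap with rest, at a read ratio of 19.0 (15.9 to 22.9). Its log2 change of 4.18 (SE 1.56, limma adjusted p = 0.245) nevertheless did not pass. The fit shares 1 estimate of spread between the genotypes, and the CCL2 values of the knockout IL-1α pair lay far apart. With knockout replicate 1 left out the same change had SE 0.18 and limma adjusted p = 0.0414, and with knockout replicate 2 left out 0.0415. In these fits the lone knockout library is assumed to vary like the others.

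CXCL16 (chr17:4636824-4643223, hg19, minus strand) had the smallest proportional response and the most reads. In wild-type cells it went from 45.7 RPKM to 122 and 93.3 RPKM, a log2 change of 1.21 (SE 0.22, limma adjusted p = 0.112) and a read ratio of 2.33 (2.21 to 2.45). CCL22 (chr16:57392695-57400102, hg19, plus strand) went from 0.164 to 1.62 and 2.06 RPKM, a read ratio of 11.3 (5.61 to 26.5). CXCL10 (chr4:76942269-76944689, hg19, minus strand) went from 0.049 to 1.27 and 0.847 RPKM, on 1 read at rest and 25 and 19 reads with IL-1α. CCL7 (chr17:32597235-32599261, hg19, plus strand) went from 0.148 to 0.833 and 0.999 RPKM, a read ratio of 6.24 (1.56 to 54.3). Limma adjusted p was 0.128 for CCL22, 0.172 for CXCL10 and, in a fit without the level filter, 0.482 for CCL7.

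In knockout cells, 5 of the 7 genes stood above rest in both IL-1α libraries, and CCL2 and CCL7 did so in replicate 1 only. How many of all genes stood above rest in both was not counted. The fitted change was positive for 6 of 6 tested members, as for 6098 of the 12925 genes. Limma called 0 of 6, where 0.0696% of all tested genes rose. At an unadjusted p below 0.05 there were 5 of 6, against 463 of the 12925 genes. Voom also called 0, a pseudocount of 0.1 called CCL20 (limma adjusted p = 0.041), and the fit among genes reaching 5 RPKM called CCL20 (limma adjusted p = 0.0189) and CCL5 (limma adjusted p = 0.0177). The median log2 change was 2.0, against -0.02 over all tested genes. Both knockout libraries were at least 2-fold above rest for CCL5, CCL20, CCL22 and CXCL10, that is 4 of 6, as for 1.04% of all tested genes.

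CCL20 had the largest change in knockout cells, from 0.172 RPKM to 5.27 and 6.53 RPKM (log2 3.24, SE 0.33, limma adjusted p = 0.0652). CCL5 went from 1.17 RPKM to 9.56 and 5.65 RPKM, a read ratio of 6.25 (4.66 to 8.55). CXCL10 went from 0.165 to 3.66 and 2.03 RPKM, a read ratio of 16.4 (7.81 to 41.5). CCL22 went from 0.265 to 2.01 and 1.17 RPKM, a read ratio of 5.74 (3.84 to 8.9). These 4 genes lay well above rest in both knockout libraries. CXCL16 went from 30.9 to 53.3 and 54.1 RPKM, a read ratio of 1.74 (1.66 to 1.83). Limma adjusted p was 0.138 for CCL5, 0.244 for CXCL10, 0.762 for CCL22 and 0.864 for CXCL16.

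**Figure D2:**
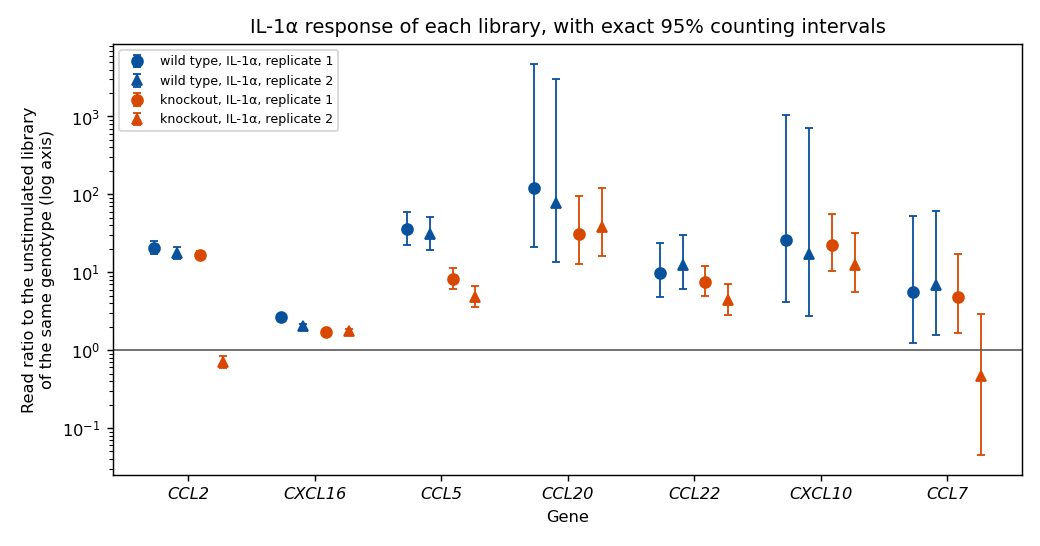
Depth-scaled ratio of reads in each IL-1α library to the unstimulated library of the same genotype (log axis), with bars for exact 95% counting intervals. The wild-type bars of CCL20 and CXCL10 are wide because the unstimulated library held 1 read. CCL5 ratios are 35.6 and 30.6 in wild-type and 8.18 and 4.84 in knockout libraries.

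Between the genotypes under IL-1α, CCL5 and CXCL16 were lower in both knockout libraries than in both wild-type ones, CXCL10 was higher in both, and CCL2, CCL7, CCL20 and CCL22 overlapped. None of the 6 tested genes passed in limma, where 0.155% of all tested genes did in either direction. At an unadjusted p below 0.05 there were 3 of 6, CCL5, CXCL16 and CXCL10, against 1926 of the 12925 genes. Voom called 1, CCL5. Knockout libraries below wild-type ones without overlap were also found for 16.3% of all tested genes, against 2 of 6 here. The reverse was found for 32.4% of all tested genes, against 1 of 6 here. Such an order by itself is common in these data.

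Under IL-1α, CCL5 averaged 30.7 ± 3.26 RPKM (SD, n = 2) without the knockout and 7.60 ± 2.76 RPKM (SD, n = 2) with it. The log2 difference, knockout minus wild type, was -1.98 (SE 0.27, limma adjusted p = 0.0783), so it missed the threshold. It passed among genes reaching 5 RPKM (limma adjusted p = 0.0134) and with voom (limma adjusted p = 0.0345). Other pseudocounts and scalings, no variance trend and no level filter left it short, at limma adjusted p of 0.0684 to 0.311. The value stayed between -2.34 and -1.63 in the 14 settings run. By reads, wild type exceeded knockout 4.18-fold (3.76 to 4.66). At rest the knockout library was not below the wild-type one, at a read ratio of knockout to wild type of 1.26 (0.729 to 2.26).

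CXCL16 averaged 107.5 ± 20.1 RPKM (SD, n = 2) in IL-1α-treated wild-type cells against 53.7 ± 0.581 RPKM (SD, n = 2) in the knockout, a log2 difference of -0.98 (SE 0.18, limma adjusted p = 0.14). Unlike CCL5 it was already lower at rest, at a knockout to wild-type read ratio of 0.675 (0.635 to 0.718). The sum of the myeloid marker list was also lower in the knockout under IL-1α, at 12.3 to 15.1 RPKM against 7.08 to 8.14 RPKM for the knockout. Only 1 of its 9 genes, the lysosomal protein gene CD68, reached 1 RPKM, and the sum follows it. Below that level LAPTM5 and ITGAM went the other way under IL-1α. LAPTM5 was at 0.275 and 0.218 RPKM in wild-type libraries against 0.738 and 0.392 RPKM in the knockout ones. SPI1, the myeloid lineage factor, was at 0 in every library. ADAM10, the sheddase of CXCL16, was at 37.7 to 51.7 RPKM across the 6 libraries, with a log2 difference of 0.0 (SE 0.19, limma adjusted p = 0.996).

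CXCL10 averaged 1.06 ± 0.298 RPKM (SD, n = 2) in IL-1α-treated wild-type cells against 2.85 ± 1.16 RPKM (SD, n = 2) in the knockout. The log2 difference was 1.07 (SE 0.34, limma adjusted p = 0.253), and knockout reads exceeded wild-type ones 2.6-fold (1.86 to 3.72). Its neighbour CXCL11, another interferon-induced CXCR3 ligand, with IL-1α was at 0.309 and 0.305 RPKM in wild-type libraries against 1.75 and 0.76 RPKM in the knockout ones (log2 difference 1.06, SE 0.37, limma adjusted p = 0.278). CXCL9, the other CXCR3 ligand, had at most 2 reads in any library. CCL20 and CCL22 differed by -0.22 (SE 0.27, limma adjusted p = 0.74) and -0.19 (SE 0.3, limma adjusted p = 0.801), and leaving out 1 library turned either sign.

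**Figure D3:**
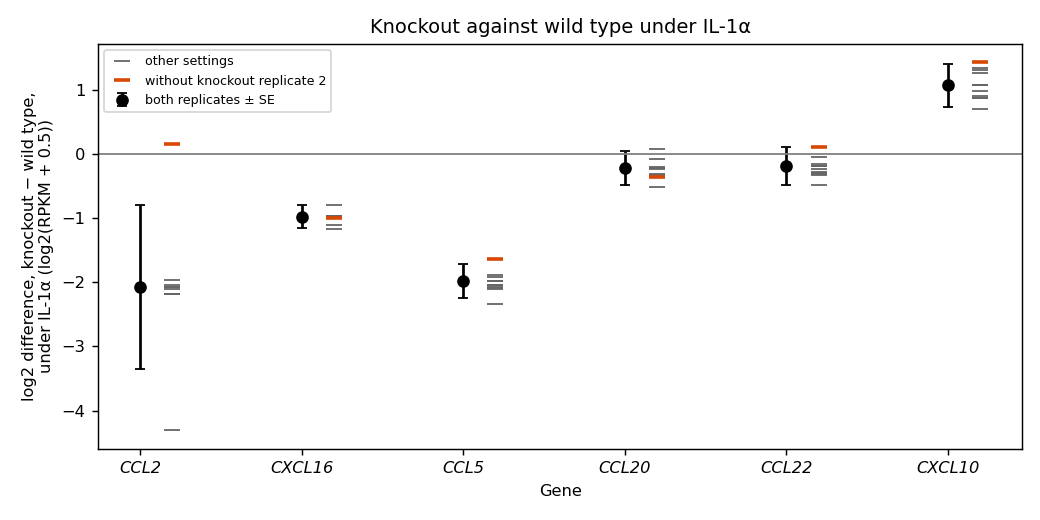
Log2 difference between knockout and wild type under IL-1α for the 6 tested genes: black points with bars are the fit with all libraries ± SE, and dashes to their right are the other settings, with the orange dash for the fit without knockout replicate 2. CCL5 stays between -2.34 and -1.63, whereas CCL2 moves from -2.08 to 0.15 without that library.

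The interaction contrast asks whether the IL-1α response itself differed between the genotypes. Limma called 0 of 6 members and 0% of all tested genes (0 of 12925), and voom called 0 members. The only member with an unadjusted p below 0.05 was CCL5, whose response was smaller in knockout cells by -2.21 on the log2 scale (SE 0.46, limma adjusted p = 0.966). CCL2 had -2.43 (SE 2.21), CCL20 -0.45 (SE 0.47), CXCL16 -0.42 (SE 0.31), CCL22 -0.39 (SE 0.52) and CXCL10 0.79 (SE 0.58), all at a limma adjusted p of 0.966. A smaller CCL5 response in knockout cells is therefore not shown at the threshold used.

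Without stimulation, none of the 6 members was at least 2-fold apart between the genotypes with 1 RPKM in the higher library, as 9.5% of all tested genes were. Only CCL2, CCL5 and CXCL16 reached 1 RPKM at rest and could meet that condition, so nothing is read from the count. The comparison has 1 library a side and was made by fold alone, without a test. Knockout to wild-type read ratios were 1.29 (1.04 to 1.6) for CCL2, 1.61 (0.713 to 4.11) for CCL22 and 1.2 (0.196 to 12.6) for CCL7. Those of CCL20 and CXCL10 rest on 1 wild-type read each and were 2.39 (0.268 to 113) and 3.35 (0.43 to 151).

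CCL2 was the member that differed most between the knockout IL-1α libraries. It was at 206 RPKM in replicate 1 and 8.87 RPKM in replicate 2, on 3352 and 196 reads, a ratio of 23.3 (20.1 to 27.0). Replicate 1 was 16.4 times the unstimulated knockout library (14.7 to 18.5) and replicate 2 was 0.706 times it (0.588 to 0.846). CCL2 was the only one of 6 tested members at least 4-fold apart in this pair, where 1.55% of all tested genes were. The knockout response of CCL2 was 1.75 on the log2 scale (SE 1.56, limma adjusted p = 1.0) with both libraries, 3.99 without replicate 2 and -0.48 without replicate 1. Knockout against wild type under IL-1α was -2.08 (SE 1.28, limma adjusted p = 0.482) with both, 0.15 without replicate 2 and -4.31 without replicate 1. No direction for CCL2 in knockout cells can be read from these data.

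The low values extended to CCL7 and CCL1, which lie near CCL2 in the CC chemokine cluster of chromosome 17. CCL7, 14.9 kb downstream, was at 0.846 and 0.083 RPKM in the knockout IL-1α pair, on 15 and 2 reads, a ratio of 10.2 (2.37 to 91.9). CCL1, a ligand of CCR8 and 105.1 kb downstream, was at 4.03 and 0.741 RPKM, a ratio of 5.44 (2.92 to 10.9). In wild-type cells CCL1 was at 0 at rest and at 3.54 and 4.03 RPKM with IL-1α. Of the 12 genes with at least 0.5 RPKM within 1000000 bases of CCL2, the other 9 had ratios of 0.982 to 1.96. The highest of these was SLFN5, which went from 22.2 to 52.5 and 65.6 RPKM with IL-1α in wild-type cells. In knockout cells it went from 29.9 to 55.0 and 28.1 RPKM. Its value in knockout replicate 2 was thus not above rest, as with CCL2. CCL5, on the same chromosome 1616200 bases from CCL2, had a ratio of 1.69 (1.4 to 2.04). On other chromosomes, CCL22 had a ratio of 1.72 (1.32 to 2.26), CXCL10 1.81 (1.32 to 2.48) and CXCL11 2.3 (1.5 to 3.58). Of the 6 tested members, 4 were higher in replicate 1 and 2 were higher in replicate 2. The median log2 difference of the members, replicate 1 minus replicate 2, was 0.65. Over all tested genes, 6138 of 12925 were higher in replicate 1. Most chemokines that draw neutrophils went the other way: 5 of 6 tested were higher in replicate 2, as were 6745 of the 12925 genes. Their median log2 difference, replicate 1 minus replicate 2, was -0.92, against -0.02 over all tested genes. CXCL8, for example, was at 79.6 and 144 RPKM. The exception was CXCL5, lower in replicate 2 like CCL2, at 1.60 and 0.555 RPKM, a ratio of 2.89 (1.97 to 4.29). The low values of replicate 2 were thus not shared by all chemokines. What sets replicate 2 apart was not tested.

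**Figure D4:**
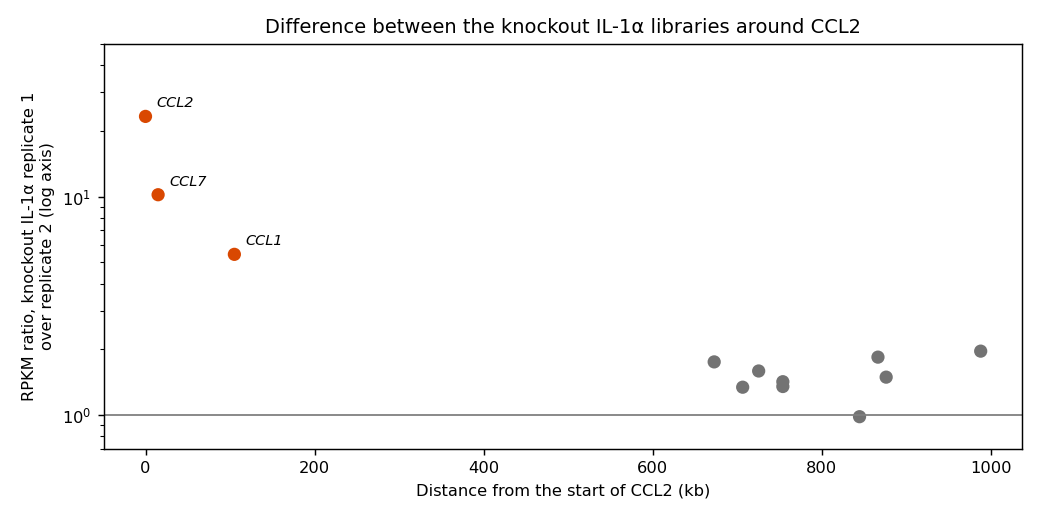
RPKM in knockout IL-1α replicate 1 divided by that in replicate 2 (log axis) against the distance of each gene's start from that of CCL2 (kb), for the 12 genes within 1000000 bases with at least 0.5 RPKM. CCL2, CCL7 and CCL1 (orange) lie at 23.3, 10.2 and 5.44, and the other 9 genes (grey) between 0.982 and 1.96. The highest grey point is SLFN5, which like CCL2 was not above rest in knockout replicate 2.

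The genes whose levels most resembled each member were taken by Pearson's correlation of log2(RPKM + 0.5) over the 6 libraries, among 1811 genes that reached 5 RPKM and varied at least 2-fold. The coefficients are descriptions over points that share 4 groups. For CCL2 they were RSAD2, an antiviral interferon-induced gene (r = 0.989), CDH5, the gene of VE-cadherin (r = 0.983), and FUT2, a fucosyltransferase gene (r = 0.972). CDH5 was at 1.45 RPKM at rest, 11.4 and 11.8 RPKM with IL-1α in wild-type cells, and 2.94, 10.3 and 1.84 RPKM in the corresponding knockout libraries. CDH5 and RSAD2 lie on other chromosomes and were also low in knockout replicate 2. Both were picked for their likeness to CCL2 over these libraries, so that low value follows from the choice and nothing is read from it. RSAD2 also belongs to the list for the interferon axis of CXCL10, described below. Of the 21 tested genes of that list, 12 were higher in knockout IL-1α replicate 1 and 9 in replicate 2. Their median log2 difference was 0.0, against -0.02 over all tested genes. CDH5 is also an endothelial marker, so that the list's sum, 1.83 to 12.0 RPKM, follows it. Of the other 4 endothelial markers none reached 1 RPKM, and PECAM1 and TEK were at 0 in every library.

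For CCL5 the closest patterns were those of SPRR2E (r = 0.998) and SPRR2F (r = 0.995), which encode cornified envelope proteins and have near-identical relatives that can share reads, and of ZSWIM4 (r = 0.994). For CCL20 they were those of TMEM171 (r = 0.998), PLAU, which encodes urokinase (r = 0.996), and HBEGF, an EGF receptor ligand (r = 0.993). PLAU was at 111 RPKM at rest and 306 and 242 RPKM with IL-1α in wild-type cells, and at 114, 236 and 275 RPKM in knockout cells. That it was similar in both genotypes, like CCL20, follows from its choice by likeness to CCL20. CCL22 was followed by the syndecan gene SDC4 (r = 0.986), the BCL2 relative BCL2A1 (r = 0.986) and TRIB2 (r = 0.983). CXCL10 was followed by the sugar transporter gene SLC2A6 (r = 0.989), NINJ1 (r = 0.969) and AKR1C2 (r = 0.958), and CXCL16 by the exonuclease gene ISG20 (r = 0.996), SERPINB1 (r = 0.993) and CXCL6 (r = 0.988).

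Among the other CC chemokines, 23 were in the table, 9 were at 0 in every library and 3 reached 1 RPKM: CCL1, CCL17 and CCL28, the last a mucosal chemokine. None of the 3 passed limma in any contrast. All 3 had an unadjusted p below 0.05 in the knockout response and 1 in each other contrast. Over all tested genes there were 463 of 12925 in the knockout response and 2333 in the wild-type response. There were 1926 between the genotypes under IL-1α and 567 for the interaction. None of 18 genes of signalling chemokine receptors reached 1 RPKM. Among the atypical receptors, which bind chemokines without G-protein signalling, ACKR3 was at 11.7 RPKM at rest and 3.87 and 3.68 RPKM with IL-1α in wild-type cells (log2 -1.52, limma adjusted p = 0.0637). In knockout cells it was at 7.52, 6.06 and 6.70 RPKM. It is named after its values were seen. Of 8 chemokines that draw neutrophils, 6 were tested and 3 rose in wild-type cells, where 0.201% of all tested genes rose. These were CXCL5 (log2 4.08), CXCL8 (log2 3.76) and CXCL6 (log2 3.73). In knockout cells only CXCL8 passed (log2 4.0, limma adjusted p = 0.0469), where 0.0696% of all tested genes rose. CXCL1, the other most abundant one, was at 64.5 and 149 RPKM with IL-1α in those cells.

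In the NF-κB and IκB list, 13 of 14 genes had a positive wild-type change, with a median of 0.79. Over all tested genes 4779 of 12925 were positive, with a median of -0.14. Only TNFAIP3, an inhibitor of NF-κB, passed (log2 3.05, limma adjusted p = 0.0297), where 0.201% of all tested genes rose. NFKBIA, which encodes IκBα, went from 29.9 to 120 and 95.1 RPKM in wild-type cells (limma adjusted p = 0.0831) and from 28.0 to 95.5 and 140 RPKM in knockout cells. TNFAIP3 went from 20.7 to 83.3 and 130 RPKM in knockout cells, so that both inhibitors stood above rest in replicate 2 as well. Among 21 tested genes of the interferon axis of CXCL10, 20 had a positive wild-type change, against the same 4779 of 12925. Of these 21 only IFIH1, an RNA sensor, passed (log2 1.76, limma adjusted p = 0.0478), against the same 0.201%. Under IL-1α 14 of the 21 were lower in knockout cells, as were 5036 of the 12925 genes tested. None of the 21 passed limma in this comparison, and 7 had an unadjusted p below 0.05, as had 1926 of the 12925 genes.

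Of 10 genes of AU-rich mRNA decay and 15 tested genes of IL-1 receptor signalling, none passed limma in any contrast. At an unadjusted p below 0.05 there were 0 to 3 of the 10 and 0 to 5 of the 15, depending on the contrast. Over all tested genes these numbers were 2333 of 12925 in the wild-type response, 463 in the knockout response, 1926 between the genotypes under IL-1α and 567 for the interaction. HNRNPD and ZFP36L1, RNA-binding proteins and the most abundant of the former, differed between genotypes under IL-1α by 0.2 and -0.06 on the log2 scale. IL1R1, the receptor that IL-1α binds, is named after its values were seen. It was at 10.6 RPKM at rest and 12.1 and 11.5 RPKM with IL-1α in wild-type cells, and at 3.38, 2.76 and 5.06 RPKM in knockout cells (log2 difference under IL-1α -1.53, SE 0.27, limma adjusted p = 0.134). IL1R1 was thus lower in the knockout at rest as well as under IL-1α, as was CXCL16, whereas the resting CCL5 value was not lower in the knockout library. IL1R2 and IL1RN of the same list were also lower in the knockout at rest (1.48 against 4.59 RPKM and 51.9 against 73.7 RPKM). Under IL-1α they differed by -1.42 (limma adjusted p = 0.133) and -0.98 (limma adjusted p = 0.134). Of the 15 tested genes, 7 were lower in the knockout under IL-1α and 8 higher. The part of these genes in the results for the members was not tested.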

How the data were processed

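The 6 HaCaT libraries were made with a stranded mRNA kit, per the labels' protocols. Per the submitters' processing notes, reads were handled with bcl2fastq (2.20.0.422), STAR and HOMER on hg19. The authors deposited RPKM per gene symbol, counted over exons per the file headers; the strand setting is not given in the sources used here, so overlapping antisense transcripts may be included. The deposited RPKM values were used as they stand. Depth was recovered as the read number that turned RPKM values of 0.02 to 1 into whole reads (100% whole, tolerance 0.1 read). Rebuilt reads gave exact 95% ratio intervals (scipy 1.17.1) and the voom alternative.

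The 12925 genes that reached 1 RPKM in some library were fitted on the log2(RPKM + 0.5) scale, with a coefficient for each group, using limma 3.58.1 under R 4.3.3 with a variance trend and Benjamini-Hochberg adjustment at 0.05. Spread came from the 2 replicated groups (2 residual and 4.2 prior degrees of freedom), and the comparisons share libraries. Fold changes on this scale understate changes of low genes. The script was tested on simulated data. The alternatives were other pseudocounts, level filters and scalings, voom, no variance trend, a replicate block and leaving out each IL-1α library. The members and lists were chosen with earlier results of these data known. From each list the genes passing (at most 4 per comparison, by size) and the 2 most abundant were eligible to be named, plus the 3 closest patterns per member. CXCL9, CXCL11, CCL1, CCL17, CCL28, SLFN5, CDH5, CD68, LAPTM5, ITGAM, SPI1, ACKR3, KRT17, COL17A1, TP63, IL1R1 and IL1R2 are named beside results that turn on them.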

Additional observations from a re-analysis of the deposited data

Results flagged for a closer look

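CCL17, a ligand of CCR4 like CCL22, was higher than at rest in both knockout IL-1α libraries and in neither wild-type one. It was at 1.28 RPKM at rest and at 1.21 and 1.06 RPKM with IL-1α in wild-type cells, on 12 or 13 reads each. In knockout cells it was at 0.188 RPKM at rest, on 4 reads, and at 2.18 and 1.99 RPKM with IL-1α. The wild-type change was within counting error, at a read ratio of 0.887 (exact 95% interval 0.434 to 1.9), so that opposite directions are not shown. The responses differed by 2.03 on the log2 scale (SE 0.41), and the interaction in limma did not pass (adjusted p = 0.966).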

How the results depend on the processing

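Of 304 values of single members under other settings, 279 kept their direction and their side of the threshold, 10 lost and 11 gained the call, and 4 changed sign. The wild-type count of 2 fell to 0 without the level filter and 0 with voom, and was 0 to 2 when leaving out 1 IL-1α library. It was 0 without either wild-type library, fits that called none of the 12925 genes. The knockout count of 0 became 1 with a pseudocount of 0.1 (CCL20) and 2 among genes reaching 5 RPKM (CCL5 and CCL20). Knockout against wild type went from 0 to 1 with the 5 RPKM filter and 1 with voom, CCL5 in both. With the 5 RPKM filter only 4 members entered, and CXCL16 passed in wild-type cells (limma adjusted p = 0.0416). Leaving out 1 library turned signs. The CCL2 knockout response ran from -0.48 (without knockout replicate 1) to 3.99. Knockout against wild type ran from -4.31 to 0.15 (without knockout replicate 2) for CCL2, from -0.52 to 0.08 (without wild-type replicate 1) for CCL20, and from -0.48 to 0.11 (without knockout replicate 2) for CCL22. Apart from the fits with fewer samples or genes, the cause was not tested. Interaction and unstimulated counts were 0 in every setting run.

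The replicate numbers did not pair the libraries: deviations of same-numbered libraries correlated at 0.01 over genes. With a replicate block the knockout response called 2 members (CCL5 and CCL20) and knockout against wild type 1 (CCL5, -1.98, limma adjusted p = 0.0182). Resting levels of CCL20 and CXCL10 rest on 1 wild-type read, so their fold changes are limited by depth.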
